A study of Mus musculus with 4 samples.

Results

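The immune cells of infarcted hearts from PD1 knockout mice were compared with those from PD1 heterozygous mice. The cells were all barcodes with at least 500 UMIs (unique molecular identifiers, counted RNA molecules), at least 200 detected genes and at most 10% mitochondrial UMIs. These were 7104 cells of the KO_MI library and 5074 cells of the Het_MI library, together 12178 of the 23961 cells that pass in the 4 libraries. KO_MI is a homozygous PD1 deletion with a myocardial infarction (MI), and Het_MI is a heterozygous PD1 deletion with the same injury. KO_sham and Het_sham, with 6407 and 5376 cells, have the same genotypes with a sham operation, and their values stand beside those of the infarcted hearts. The mice were C57BL/6, surgery was on postnatal day 2, and hearts were collected 7 days after it. The mouse heart is known to regenerate when injured just after birth and to lose this capacity within days. The atria were removed, the tissue was digested with enzymes, red cells were lysed, and live CD45-positive cells were sorted. No wild-type animals were in the comparison, so both genotypes carry a PD1 deletion. The labels do not give the sex of the animals, how many were pooled, or which part of the gene was deleted. Each group is 1 library, so the differences below were not tested and have no replicates to check them against.

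Each cell was placed in a lineage by gates, which are short lists of marker genes. A gate asked for at least 2 of its genes (3 in a few lineages) and 3 of their UMIs. The gates took in 5129 cells of KO_MI and 3852 of Het_MI as 15 immune lineages, whose names mean only that these markers were detected. Mixed droplets, which met the gates of incompatible lineages, were set aside and made up 22.2% of KO_MI and 18.5% of Het_MI, against 15.6% of KO_sham and 16.8% of Het_sham. Droplets led by thymocyte markers were 278 of the mixed ones in KO_MI and 70 in Het_MI. A sort for CD45 should remove endothelial cells and fibroblasts, and the gates found 75 and 64 of them in KO_MI and 44 and 58 in Het_MI. The median cell held 7469 UMIs in KO_MI and 8632 in Het_MI. In total 69395471 UMIs of KO_MI and 57489558 of Het_MI were used, against 62907976 of KO_sham and 47526289 of Het_sham. KO_MI and Het_MI shared 11 cell barcodes.

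The libraries differed in the sex of their cells. Only 1 KO_MI cell (0.0141%) held a UMI of a Y-linked gene, against 60.3% of Het_MI cells, 47.4% of KO_sham cells and 40.7% of Het_sham cells. Xist, which is transcribed from the inactive X chromosome, was counted in 90.0% of KO_MI cells and 24.2% of Het_MI cells. Genotype and sex can therefore not be told apart in the infarcted hearts over all cells. Values limited to cells with an Xist UMI and no Y-linked UMI (6393 cells of KO_MI and 732 of Het_MI) are called Xist-limited and are given beside many of the results. In Het_MI some of these may be male cells with stray Xist RNA and no counted Y-linked UMI, so their sex is not known. Levels are in CPM, which is a gene's UMIs divided by all UMIs of the same lineage and library and multiplied by 1000000. Differences are log2 ratios of KO_MI over Het_MI, so positive values mean higher in KO_MI, and brackets give 95% intervals that cover counting error only.

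PD-1 is an inhibitory receptor that lymphocytes put on their surface after activation, and it damps their signalling when it meets PD-L1 or PD-L2 on another cell. Activated T cells and natural killer (NK) cells release interferon-gamma. Its receptor, made of chains encoded by Ifngr1 and Ifngr2, signals through the kinases Jak1 and Jak2. Promoters of its target genes often carry a short DNA element called GAS, while those of type I interferon targets often carry an element called ISRE, which IRF1 can also bind. In macrophages, interferon-gamma is known to induce the guanylate-binding proteins (Gbp genes) and immunity-related GTPases, antigen presentation on MHC molecules, and the chemokine CXCL9, which attracts T cells with the receptor CXCR3.

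Promoters of 4 interferon-induced genes are shown. Cxcl9 and Gbp2 are among the genes with the firmest differences below, while Gbp5 and Igtp had smaller ratios. Each is the 250 bases before the annotated start, from RefSeq on GRCm38.p6, read along the gene's own strand. Capitals mark matches to GAS (TTCNNNGAA) or ISRE (GAAA, any 2 bases, then GAAA) on either strand. Gbp2 has an ISRE match (chr3:142620413-142620662, plus strand). Gbp5 has 2 GAS matches and an ISRE match (chr3:142496684-142496933, plus strand). Igtp has both close to its start (chr11:58199306-58199555, plus strand), and Cxcl9 has neither in this window (chr5:92328080-92328329, minus strand).
Gbp2: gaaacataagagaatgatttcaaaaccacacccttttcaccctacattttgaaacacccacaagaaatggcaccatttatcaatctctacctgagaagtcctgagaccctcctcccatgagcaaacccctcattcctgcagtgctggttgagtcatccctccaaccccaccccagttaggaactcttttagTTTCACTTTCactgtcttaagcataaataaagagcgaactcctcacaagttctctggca
Gbp5: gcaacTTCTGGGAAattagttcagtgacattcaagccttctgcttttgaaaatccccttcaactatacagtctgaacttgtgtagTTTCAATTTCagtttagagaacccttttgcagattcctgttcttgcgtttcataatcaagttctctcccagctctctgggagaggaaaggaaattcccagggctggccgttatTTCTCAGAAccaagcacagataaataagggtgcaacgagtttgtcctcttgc
Igtp: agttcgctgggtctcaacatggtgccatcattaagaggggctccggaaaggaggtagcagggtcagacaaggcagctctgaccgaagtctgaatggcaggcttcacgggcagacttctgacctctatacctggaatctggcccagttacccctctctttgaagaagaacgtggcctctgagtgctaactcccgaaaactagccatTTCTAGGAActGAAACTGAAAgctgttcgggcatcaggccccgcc
Cxcl9: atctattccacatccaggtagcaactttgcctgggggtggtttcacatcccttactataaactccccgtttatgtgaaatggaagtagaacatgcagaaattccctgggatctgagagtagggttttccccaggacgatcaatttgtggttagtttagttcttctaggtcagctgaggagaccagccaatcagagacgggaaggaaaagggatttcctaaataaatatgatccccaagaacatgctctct

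Over all 32851 promoters of the same length, 7.02% held a GAS match and 2.98% an ISRE match, and the 2 motifs overlapped in 0.0548%. Of the 16 interferon-induced GTPase genes listed, 11 were in the promoter table, with 12 promoters. An ISRE match lay in 10 of these 12 promoters and a GAS match in 6. Of 18 promoters of type I interferon response genes, 8 held an ISRE match and 3 a GAS match. The 18 promoters of MHC class I genes held 3 and 1, and the 8 of MHC class II genes 0 and 1. Of 15 promoters of resident macrophage genes 2 held an ISRE match, and these belong to the single gene Selenop. Of 17 promoters of inflammatory genes 3 held a GAS match. A match describes these letters and is not a site shown to be bound.

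Pdcd1, the deleted gene, was not lost from the library labelled KO. It had 434 UMIs in KO_MI and 125 in Het_MI, against 73 in KO_sham and 61 in Het_sham. The levels were 6.25 CPM in KO_MI and 2.17 in Het_MI (1.52 [1.23 to 1.82]). The tags of this assay come from the 3′ end of the RNA and may lie outside the deleted part, so they check nothing, and each genotype is that of the library label. By lineage, T cells held 93 Pdcd1 UMIs in KO_MI and 37 in Het_MI, or 77.3 and 35.7 CPM, against 36.9 in KO_sham and 13.4 in Het_sham. The T cell ratio was 1.11 [0.55 to 1.71], and 0.84 without the cell with the most Pdcd1 UMIs. NK cells held 25 UMIs in KO_MI and 2 in Het_MI, and thymocyte-like T cells 15 and 1. Type 2 innate lymphoid cells (ILC2), which make type 2 cytokines, held 20 and 16, at 71.1 CPM in KO_MI and 51.5 in Het_MI. Neutrophils and non-classical monocytes held none. Many Pdcd1 UMIs lay outside the immune gates, with 245 of the 434 in KO_MI and 58 of the 125 in Het_MI on mixed, ungated and non-immune barcodes.

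The ligand PD-L1 is encoded by Cd274. It was lower in the non-classical monocytes of KO_MI, at 99.4 CPM against 146 in Het_MI, with 145 in KO_sham and 166 in Het_sham. That ratio was −0.56 [−0.85 to −0.27], and −0.33 Xist-limited. Macrophages had the opposite direction at a low level, with 11.6 CPM in KO_MI and 8.50 in Het_MI (0.46 [0.19 to 0.72], Xist-limited 0.64). Classical monocytes counted 56 Cd274 UMIs in KO_MI and 11 in Het_MI, or 20.2 and 7.78 CPM. In B cells the levels lay close together, at 29.3 CPM in KO_MI and 32.2 in Het_MI. Pdcd1lg2, which encodes PD-L2, had 37 macrophage UMIs in KO_MI and 15 in Het_MI, and 16 and 17 in ILC2.

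The infarcted knockout heart held larger shares of both monocyte types and a smaller share of B cells, while its macrophage share was close to that of the heterozygous heart. Classical monocytes, which enter tissue from blood, were 6.98% of gated immune cells in KO_MI and 4.26% in Het_MI, 1.64 times as frequent [1.36 to 1.98]. Non-classical monocytes, which patrol the vessel wall, were 8.03% in KO_MI and 5.43% in Het_MI (ratio 1.48 [1.25 to 1.76]). In the sham hearts both monocyte ratios lay below 1, at 0.761 [0.628 to 0.920] and 0.826 [0.743 to 0.918]. Limited to Xist cells, the log2 share ratio of classical monocytes was 0.40 [−0.15 to 0.99], against 0.71 over all cells. B cells were 14.1% in KO_MI and 19.8% in Het_MI (ratio 0.711 [0.641 to 0.788]), but this difference was small with a stricter cell filter, at a log2 ratio of −0.09 against −0.49. Macrophages were 50.9% in KO_MI and 51.5% in Het_MI, and neutrophils 5.95% and 5.89%. In sham hearts macrophages were 45.9% in KO_sham and 32.1% in Het_sham.

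Smaller lineages differed too. Thymocyte-like T cells, which carry genes of antigen receptor recombination, were 3.51% in KO_MI and 2.02% in Het_MI, against 0.744% in KO_sham and 8.17% in Het_sham. The ratio of KO_MI over Het_MI was 1.73 [1.32 to 2.29], 2.20 with mixed droplets kept and 4.59 Xist-limited. Over all cells their share varied more between the sham libraries than between the infarcted ones. Mast cells were 14 cells in KO_MI and 31 in Het_MI (ratio 0.339 [0.167 to 0.657]). Type 1 conventional dendritic cells (cDC1), which present antigen to CD8 T cells, had a ratio of 0.676 [0.459 to 0.993], and migratory dendritic cells 1.83 [1.0 to 3.51]. The cDC1 log2 ratio (−0.57) was −1.10 [−2.47 to 0.19] when thinned and −0.30 [−1.39 to 0.99] Xist-limited, so those intervals included no difference. The intervals of T cells, NK cells, ILC2, type 2 conventional dendritic cells (cDC2), migratory dendritic cells, plasmacytoid dendritic cells and basophils included 1. The intervals of NK cells, ILC2 and migratory dendritic cells did not under all settings. The log2 share ratio of NK cells (0.29 [−0.21 to 0.79]) was 0.88 [0.25 to 1.53] when thinned and −0.31 Xist-limited, and that of ILC2 (−0.07 [−0.76 to 0.62]) was −1.13 [−2.12 to −0.01] Xist-limited. For migratory dendritic cells the log2 share ratio (0.87 [−0.00 to 1.81]) was 1.04 [0.12 to 2.04] with 1 more gate gene. Shares sum to 100%, so a higher share of a lineage cannot be told apart from fewer cells of the others.

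**Figure D1:**
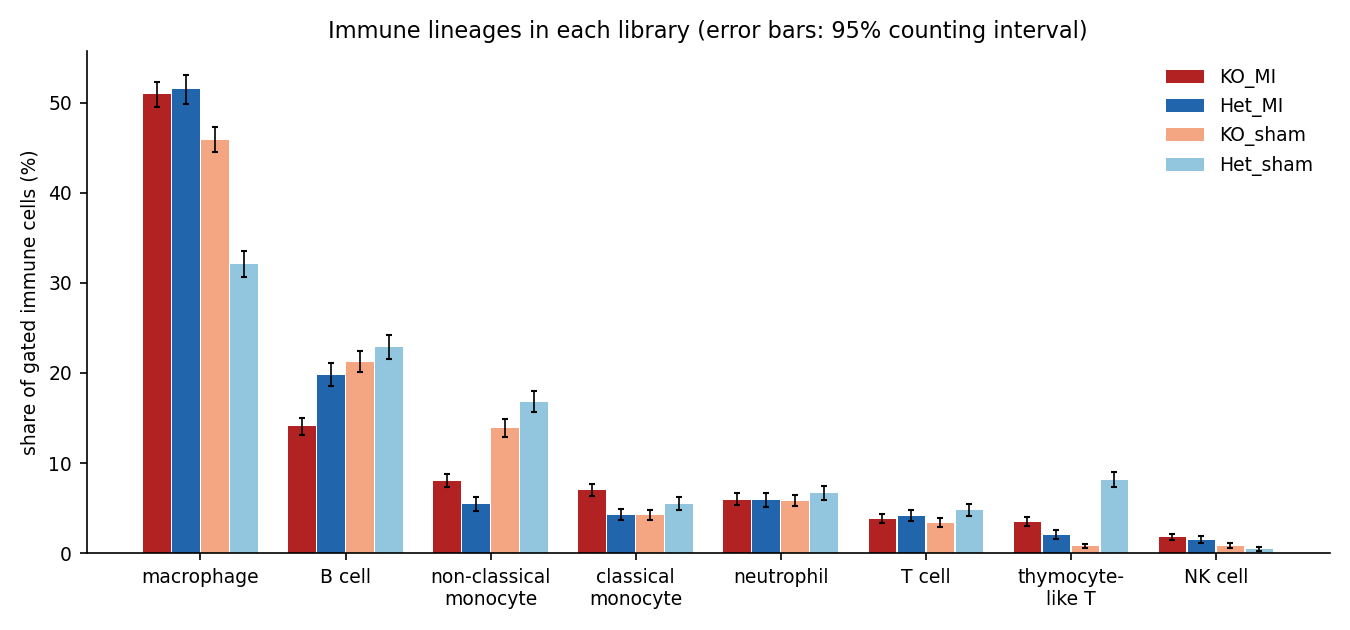
Share of gated immune cells, in percent, that fell in each of the 8 largest lineages, with a bar for each of KO_MI, Het_MI, KO_sham and Het_sham and error bars for exact 95% counting intervals. Classical monocytes stand at 6.98% in KO_MI and 4.26% in Het_MI, B cells at 14.1% and 19.8%, and macrophages at nearly the same height.

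Over all cells of the libraries, 3 of the 5 genes named as higher in KO_MI, Cxcl9, Gbp2 and Zbp1, are known interferon targets. Cxcl9 (chr5:92321347-92328079, minus strand) had 72.5 CPM in KO_MI and 6.42 in Het_MI, against 2.05 in KO_sham and 0.274 in Het_sham (3.50 [3.35 to 3.65]). Marco (chr1:120474538-120505024, minus strand), a scavenger receptor of macrophages, had 99.1 CPM in KO_MI and 17.6 in Het_MI. It had 6.95 in KO_sham and 16.4 in Het_sham, so its order was the reverse in sham hearts. A single cell held 29.2% of the Marco UMIs of Het_sham, and without it the sham ratio was −0.74 against −1.24. Gbp2 had 69.3 CPM in KO_MI and 15.1 in Het_MI (2.20 [2.09 to 2.30]). Zbp1, a sensor of nucleic acids, had 55.3 and 22 CPM, and Arg1, the enzyme arginase, 73.7 and 30.1. Xist-limited ratios of these 5 genes were 3.52 for Cxcl9, 1.27 for Marco, 1.92 for Gbp2, 1.19 for Zbp1 and 0.65 for Arg1.

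The genes lower in KO_MI over all cells had smaller ratios. Cbr2, a reductase that marks resident macrophages, had 82.4 CPM in KO_MI and 141 in Het_MI (−0.78 [−0.83 to −0.73]). Gas6, which bridges dying cells to phagocyte receptors, had 120 and 190 CPM (−0.67), and Cmah, an enzyme of sialic acid synthesis, 29.7 and 52.2 (−0.81). Ptgs2, the inducible cyclooxygenase, had 56.1 CPM in KO_MI and 94.7 in Het_MI, but 54.7 in KO_sham and 27.3 in Het_sham. The elastin gene Eln had 52.6 and 89.4 CPM, with 20.5% of the UMIs of the higher library in 1 cell and an Xist-limited ratio of the opposite sign (0.28). Among 15137 genes with at least 30 UMIs, 3.44% lay more than 1.5-fold higher and 6.41% more than 1.5-fold lower in KO_MI, with a median of −0.11. Against that background, 11 of 15 interferon-induced GTPases lay past 1.5-fold higher and none lower (median 1.04), as did 12 of 23 type I interferon response genes (0.66) and 10 of 14 cytotoxic effector genes (0.87). Over all cells, more cells of a type and more RNA per cell cannot be told apart, so the lineages follow.

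Interferon-gamma RNA itself was higher in the T cells of the KO_MI library. Ifng had 91 UMIs in T cells of KO_MI and 17 in Het_MI, or 75.6 and 16.4 CPM, against 41.7 in KO_sham and 73.9 in Het_sham. Its T cell ratio was 2.20 [1.45 to 3.05] (Xist-limited 2.49), and in the sham hearts the order was the reverse. NK cells, the other main source, counted 72 UMIs in KO_MI and 55 in Het_MI, or 154 and 177 CPM (−0.21). Over all cells Ifng had 5.74 CPM in KO_MI and 2.59 in Het_MI (1.15 [0.87 to 1.43]), and 0.84 without the cell that held 19.3% of the KO_MI UMIs. Mixed, ungated and non-immune barcodes held 209 of the 398 Ifng UMIs of KO_MI and 56 of the 149 of Het_MI. After thinning to 2000 UMIs per cell, 7.26% [3.92 to 12.1] of T cells in KO_MI and 5.10% [2.23 to 9.79] in Het_MI held an Ifng UMI. The shares were 0.120% and 0.0520% in macrophages, which are not a usual source. The intervals of the T cell shares overlapped, unlike those of the T cell levels.

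Of the cytokines that induce interferon-gamma, Il18 had 42.3 CPM in macrophages of KO_MI and 31.9 in Het_MI (0.41), and Il15 16 and 15.6. Il12b, a subunit of interleukin-12, had 349 UMIs in migratory dendritic cells of KO_MI and 195 in Het_MI, and 66.7% of the Het_MI UMIs lay in 1 cell. In cDC1 it had 7 and 142 UMIs, again mostly from 1 cell.

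The genes of the receptor chains lay close together in the libraries. In macrophages Ifngr1 had 191 CPM in KO_MI and 197 in Het_MI (−0.05), with 184 in KO_sham and 209 in Het_sham. Ifngr2 had 105 and 109 CPM. Ifngr1 was also within 1.5-fold in classical monocytes (282 and 334 CPM), non-classical monocytes (408 and 460), B cells (69.1 and 64.1), T cells (331 and 374) and NK cells (606 and 531). The kinases had 179 and 197 CPM of Jak1 and 25.2 and 31.0 of Jak2 in macrophages, and the feedback inhibitor Socs1 had 11.2 and 9.89.

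Irf1, a transcription factor gene that interferons are known to induce, was slightly lower in the macrophages of KO_MI. It had 118 CPM there in KO_MI and 133 in Het_MI (−0.18 [−0.25 to −0.11]), against 101 in KO_sham and 70.6 in Het_sham. In non-classical monocytes Irf1 was lower in KO_MI (83.5 and 126 CPM, −0.59), and in classical monocytes higher (57.3 and 37.5 CPM, 0.61), where the sign was the opposite after thinning (−0.55).

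Cxcl9 had the largest ratio of the genes named in macrophages. It had 2156 macrophage UMIs in KO_MI and 41 in Het_MI, or 85.1 and 1.68 CPM, against 0.768 in KO_sham and 0.334 in Het_sham (5.66 [5.22 to 6.14]). The cell with the most held 8.63% of the KO_MI UMIs, and without it the ratio was 5.53. Among Xist-limited macrophages Het_MI had no Cxcl9 UMI, so the ratio was at least 6.45 against a floor of 3 counts. After thinning to 2000 UMIs, Cxcl9 was counted in 63 of 2497 macrophages in KO_MI (2.52% [1.94 to 3.22]) and in 2 of 1924 in Het_MI (0.104%). Without thinning these were 3.75% and 0.353%. In T cells, which are not known to make it, 0 of 179 cells in KO_MI and 0 of 157 in Het_MI held a Cxcl9 UMI, at median depths of 4809 and 5177 UMIs before thinning, against 8312 and 10289 in macrophages. Those counts of 0 allow shares of up to 2.04% and 2.32% by exact intervals. In B cells, 6 of 618 in KO_MI (0.971% [0.357 to 2.10]) and 0 of 731 in Het_MI held a Cxcl9 UMI after thinning. Most KO_MI macrophages thus had no Cxcl9 UMI at this depth.

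Cxcl9 was counted in other lineages of KO_MI as well. The cDC1 had 295 UMIs in KO_MI and 127 in Het_MI, or 351 and 141 CPM (1.31). The cDC2 had 63 UMIs in KO_MI and none in Het_MI, non-classical monocytes 88 and none, and B cells 29 and none. Classical monocytes had 154 and 13 UMIs, but with 1 more gate gene their ratio was of the opposite sign (−2.31). Cxcl10, another CXCR3 ligand, did not follow Cxcl9 in macrophages, with 822 CPM in KO_MI and 1040 in Het_MI (−0.34), against 1167 in KO_sham and 488 in Het_sham. Their receptor Cxcr3 had 42.4 CPM in T cells of KO_MI and 24.1 in Het_MI (0.81 [0.10 to 1.57]), and 34.0 in KO_sham and 24.9 in Het_sham.

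**Figure D2:**
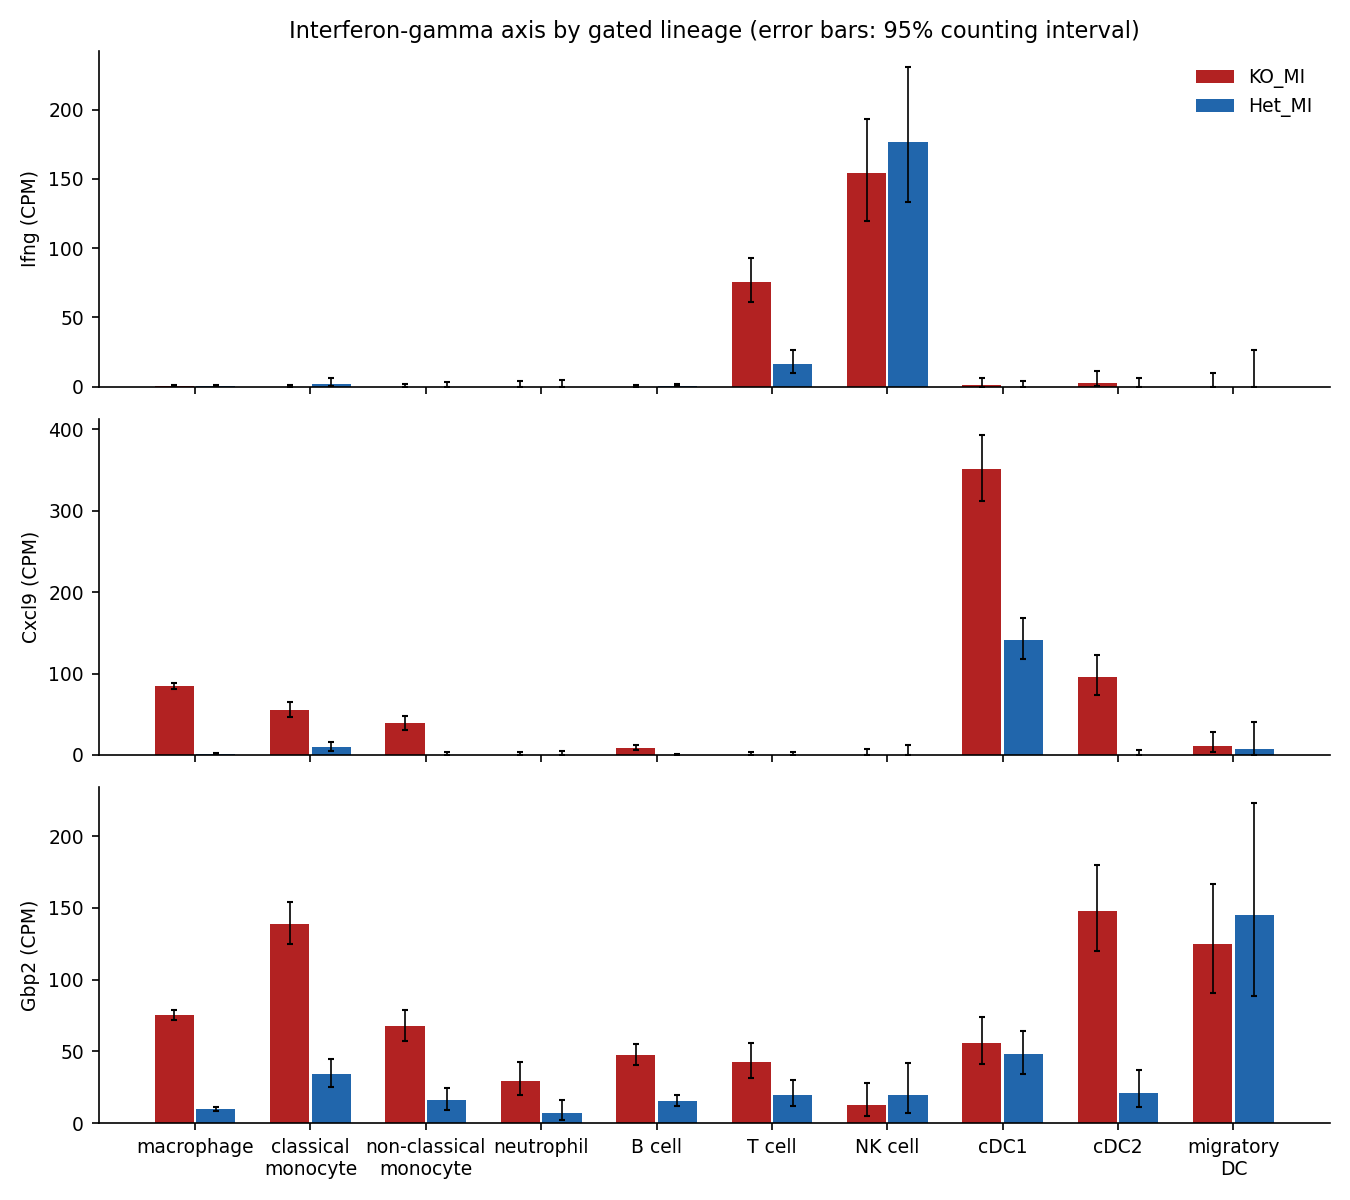
Levels of Ifng, Cxcl9 and Gbp2, in CPM (1 panel each), in 10 gated lineages of KO_MI and Het_MI, with bars for the level and error bars for exact 95% counting intervals. Ifng is counted in T cells and NK cells, while the bars of Cxcl9 and Gbp2 are higher in KO_MI in macrophages, both monocyte types and cDC2, where Gbp2 had 148 CPM in KO_MI and 21.2 in Het_MI.

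Macrophages were 2611 cells of KO_MI and 1985 of Het_MI, at median depths of 8312 and 10289 UMIs. Of 12644 genes with at least 30 UMIs there, 4.09% lay past 1.5-fold higher in KO_MI and 4.10% past 1.5-fold lower, with a median of −0.11. The interferon-induced GTPases, which attack membranes around intracellular microbes, stood above this. Of 16 listed, 15 reached 30 UMIs over both libraries, and 12 of these lay past 1.5-fold higher and none lower, with a median of 1.31. Gbp2 (chromosome 3) had 75.5 CPM in KO_MI and 9.77 in Het_MI, against 7.12 in KO_sham and 8.95 in Het_sham (2.95 [2.76 to 3.15], Xist-limited 3.01). The other 3 libraries lay below 10 CPM. Gbp7 had the smaller ratio of 0.33, at 73.7 CPM in KO_MI and 58.8 in Het_MI. Ifi47 had 29.2 and 11.7 CPM (1.31 [1.11 to 1.52]), Gbp3 27.6 and 13.5 (1.02), and Iigp1 22.5 and 3.16 (2.83). Of the genes whose promoters are printed above, Igtp had 20.3 CPM in KO_MI and 10.7 in Het_MI (0.93), and Gbp5 6.12 and 3.20 (0.93 [0.53 to 1.35]). Irgm2 was the lowest of the list, at 6.87 and 5.62 CPM (0.29 [−0.04 to 0.62]). In the sham hearts the median of the list was −0.38. After thinning, a Gbp2 UMI was found in 7.21% [6.22 to 8.29] of macrophages in KO_MI and 1.72% [1.18 to 2.40] in Het_MI. The shares were 3.24% and 2.60% in B cells, at median depths of 3213 and 4168 UMIs before thinning. They were 7.26% [3.92 to 12.1] and 1.27% [0.155 to 4.53] in T cells, with overlapping intervals. Without thinning the shares were 11.8% and 10.0% in T cells, close together, and 19.5% and 7.36% in macrophages. After thinning they were 13.2% and 5.52% in classical monocytes, and 10.2% and 3.47% in non-classical monocytes. The higher Gbp2 share was thus not particular to macrophages among these myeloid cells.

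Antigen presentation genes were higher in the macrophages of KO_MI as well. Of 10 MHC class II genes, which display peptides to CD4 T cells, 7 lay past 1.5-fold higher and none lower, with a median of 1.15. The chaperone gene Cd74 had 1347 CPM in KO_MI and 471 in Het_MI, against 272 in KO_sham and 182 in Het_sham (1.52 [1.48 to 1.55], Xist-limited 2.28). H2-Aa had 491 and 157 CPM (1.65), H2-Ab1 409 and 132 (1.63) and H2-Eb1 404 and 132 (1.61), so the 4 had closely similar ratios. Ciita, the transcription factor that controls this set, had 117 UMIs in KO_MI and 42 in Het_MI (1.42 [0.90 to 1.97]). H2-Ob, which restrains peptide loading and is known mainly from B cells, was the lowest at −0.44. The sham median of the list was 0.45, of the same sign. After thinning, 36.4% [34.5 to 38.3] of KO_MI macrophages and 21.4% [19.5 to 23.3] of Het_MI macrophages held a Cd74 UMI. In T cells the shares were 6.15% and 5.73%.

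Of 18 MHC class I and peptide loading genes, 10 lay past 1.5-fold higher in macrophages and none lower, with a median of 0.64. B2m, the light chain of the complex, had 2182 CPM in KO_MI and 1777 in Het_MI (0.30). The heavy chain genes H2-D1 and H2-K1 had 1838 and 1321 CPM and 1364 and 830 CPM (0.48 and 0.72). Psmb8, a subunit of the immunoproteasome, had 329 CPM in KO_MI and 192 in Het_MI (0.78), and Tap1, the peptide transporter, 74.2 and 38.1 (0.96). H2-Q7, a non-classical class I gene, had 106 CPM in KO_MI and 37.6 in Het_MI, against 31.4 in KO_sham and 30.9 in Het_sham (1.5 [1.39 to 1.61]). H2-Q7 lies beside near-identical copies of the Qa family, so its reads may be split between them. Tap2 was the lowest of the list (33.3 and 31.5 CPM, 0.08). The sham median was −0.15.

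Type I interferon response genes were higher by less, with 13 of 23 past 1.5-fold, none lower and a median of 0.81, against −0.47 in the sham hearts. The members with the most UMIs, Ifi27l2a (1161 CPM in KO_MI and 692 in Het_MI, 0.75), Bst2 (280 and 230, 0.28), Isg15 (213 and 194, 0.13) and Ifi204 (155 and 118, 0.40), mostly lay below the median. Zbp1 had 52.8 and 18.2 CPM (1.54), Irf7 45.5 and 18.6 (1.29) and Rsad2 34.5 and 13.7 (1.33). Ifi44 had the largest ratio (2.47), from 46 UMIs in KO_MI and 8 in Het_MI. Xist-limited, the median of the list was 0.45.

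Marco, Fn1 and Arg1 also stood higher in the macrophages of KO_MI. Marco had 196 CPM in KO_MI and 36.6 in Het_MI, against 8.41 in KO_sham and 29.8 in Het_sham (2.42 [2.31 to 2.52]), and its Xist-limited ratio was 1.20 [1.03 to 1.38]. A single macrophage held 50.9% of the Marco UMIs of Het_sham, and without it the sham ratio was −0.80 against −1.82. Fn1, which encodes fibronectin of the wound matrix, had 373 and 135 CPM, against 33.0 in KO_sham and 28.5 in Het_sham (1.47 [1.41 to 1.52], Xist-limited 2.29). Arg1 had 98.2 CPM in KO_MI and 19.1 in Het_MI (2.36 [2.22 to 2.51]), with less than 1 CPM in either sham library. Of 11 alternative activation genes 4 lay past 1.5-fold higher, but the median was 0.08 (Xist-limited 0.24 [−0.07 to 0.72]). Retnla had 113 and 18.4 CPM with 28.2% of the KO_MI UMIs in 1 cell (2.63, and 2.15 without that cell), Slc7a2, an arginine transporter, 13.1 and 4.02 (1.70), and Il10 22.8 and 32.3 (−0.50). After thinning, an Arg1 UMI lay in 4.93% of KO_MI macrophages and 1.09% of Het_MI macrophages, against 0.971% and 0.410% of B cells.

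Complement genes had a median of 0.14, with 5 of 14 past 1.5-fold higher and none lower. C4b had 42.7 CPM in KO_MI and 6.57 in Het_MI (2.70 [2.46 to 2.95]), Cfb 31.5 and 10.1 (1.64) and C3 26.4 and 11.3 (1.22). These 3 encode components of the C3-cleaving enzymes and their substrate. The receptor gene C3ar1 had 485 and 503 CPM. Among 9 myeloid CC chemokines 2 lay past 1.5-fold higher. Ccl8 had 45.0 CPM in KO_MI and 9.93 in Het_MI (2.18) and Ccl6 367 and 163 (1.17), while Ccl4 had 2528 and 3342 (−0.40) and Ccl2 750 and 1015 (−0.44). Of 15 Fc and Toll-like receptor genes Fcgr4, an activating Fc receptor, alone lay past 1.5-fold (104 and 42.8 CPM, 1.28).

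**Figure D3:**
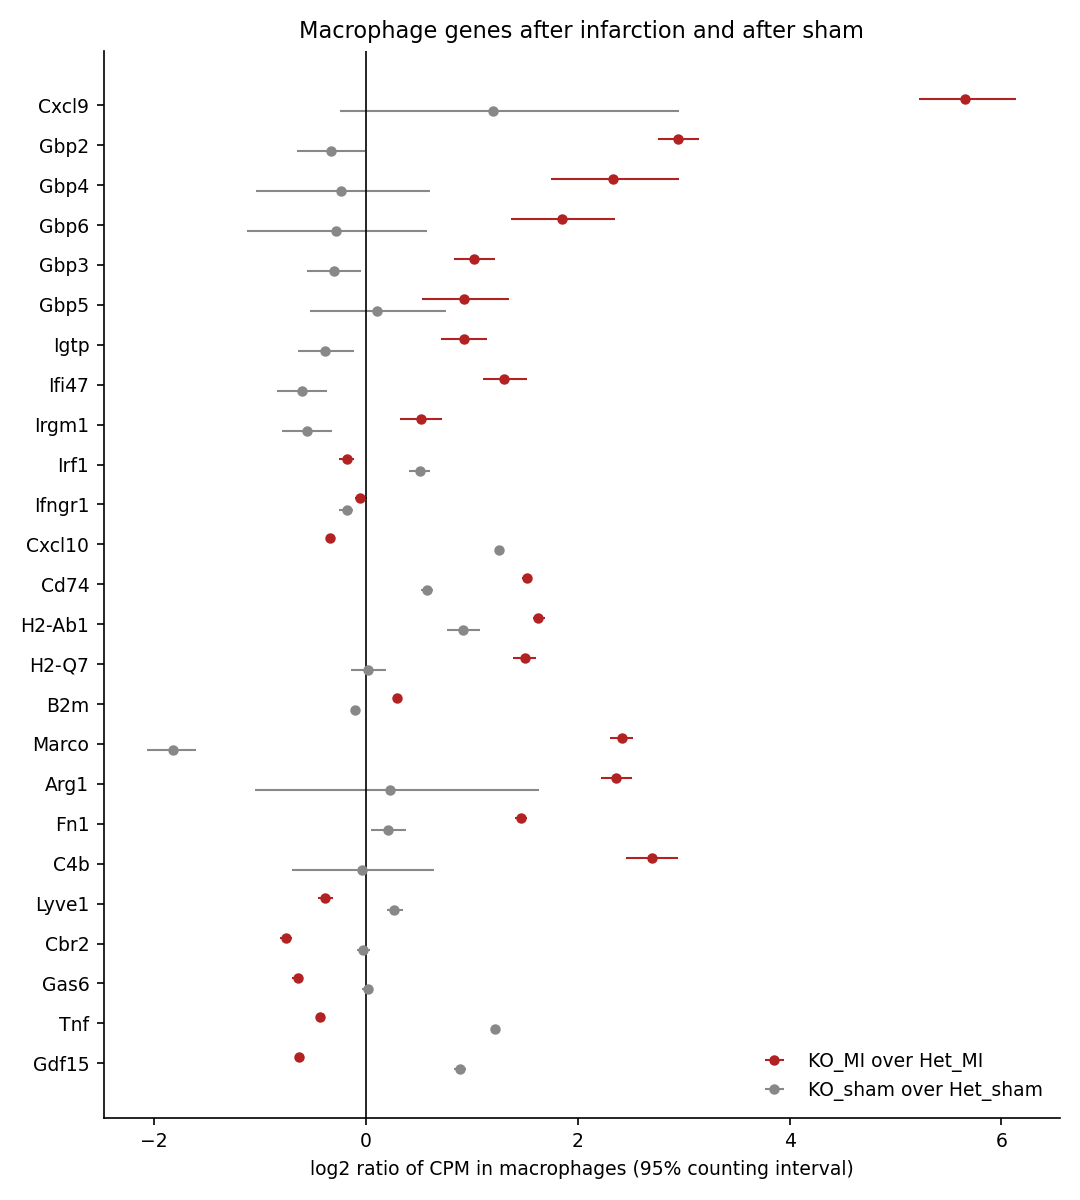
Log2 ratios of CPM in macrophages for 25 genes, with points for KO_MI over Het_MI and for KO_sham over Het_sham and lines for 95% counting intervals. Cxcl9 stands at 5.66, Gbp2 at 2.95 and Cbr2 at −0.75 after infarction, and Marco lies on opposite sides of 0, at 2.42 after infarction and −1.82 after sham. Without the Het_sham cell with the most Marco UMIs, which is included in the drawing, its sham ratio was −0.80.

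Resident macrophage genes were modestly lower in KO_MI. Their median was −0.28, against −0.11 over all genes, with 1 of 14 past 1.5-fold higher and 2 lower, and with TMM scaling it was −0.17. Pf4 had the most UMIs, with 2943 CPM in KO_MI and 3494 in Het_MI (−0.25), followed by Selenop with 1638 and 2032 (−0.31), the transcription factor gene Maf with 697 and 904 (−0.37) and Cx3cr1 with 542 and 642 (−0.25). Cbr2 had 140 CPM in KO_MI and 236 in Het_MI, against 219 in KO_sham and 221 in Het_sham (−0.75 [−0.81 to −0.69]). Gas6 had 193 and 300 CPM, against 283 and 279 (−0.64). For both genes the other 3 libraries lay close together and KO_MI lay below them. The Xist-limited ratios were −0.69 for Cbr2 and −0.76 for Gas6. Lyve1 had 116 and 152 CPM (−0.38), and after thinning a Lyve1 UMI lay in 11.2% of macrophages in KO_MI and 15.9% in Het_MI, against 0.162% and 0.410% of B cells. Vsig4, a complement receptor, went the other way within the list (48.1 and 25.9 CPM, 0.89, Xist-limited 0.37). Arsb, a lysosomal sulphatase (49.7 and 80.5 CPM, −0.69), and Ctnnd1, which encodes a catenin of cell junctions (54.6 and 87.9 CPM, −0.69), were the other genes with the firmest lower ratios.

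Inflammatory genes did not share the direction of the interferon targets. Their median in macrophages was −0.24, with 1 of 17 past 1.5-fold higher and 3 lower, while in the sham hearts it was 0.92. Cxcl2, a neutrophil attractant, had 8019 CPM in KO_MI and 8782 in Het_MI, against 9020 in KO_sham and 3899 in Het_sham. Tnf had 666 and 899 CPM (−0.43), against 840 and 361, and Nfkbia 1313 and 1547 (−0.24). For these 3 genes Het_sham was the library that stood apart. Il6 was the gene past 1.5-fold higher, with 331 UMIs in KO_MI and 109 in Het_MI (1.55 [1.23 to 1.87], Xist-limited 1.80), and Cxcl3 was the lowest (−0.86, and −0.54 without 1 cell). Gdf15, a stress cytokine, had 335 CPM in KO_MI and 519 in Het_MI, against 353 in KO_sham and 191 in Het_sham (−0.63 [−0.67 to −0.59]).

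Many lists lay near the background in macrophages. No member lay past 1.5-fold in either direction among 16 cell cycle, 11 heat shock, 16 immediate early, 15 glycolysis, 16 respiratory chain and 10 iron handling genes, with medians of −0.20, −0.19, −0.18, 0.22, 0.15 and −0.04. The lipid-associated genes had a median of 0.11, with 2 of 16 past 1.5-fold higher. Among them Apoe had 19849 CPM in KO_MI and 18942 in Het_MI, and Spp1, which encodes osteopontin, 1320 and 1021. Of 8 measured genes that induce interferon-gamma or receive that signal 1 lay past 1.5-fold higher (median 0.13). In sham macrophages Spp1 had 46.6 CPM in KO_sham and 57.4 in Het_sham. Repair growth factor genes had a median of −0.12 and scavenger receptor genes of −0.03, with 1 past 1.5-fold in each direction in both lists. Matrix metalloproteinase genes had 4 of 13 past 1.5-fold higher, among them the inhibitor gene Timp1 (4.42 and 1.11 CPM, 2.0).

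RNA of other lineages was present in the macrophage gate. Its summed T cell markers were at 42.9 CPM in KO_MI and 37.4 in Het_MI, its NK markers at 2.65 and 2.26, its B cell markers at 64.0 and 73.4, and its cardiomyocyte markers at 141 and 129. Summed erythroid markers were at 212 CPM in KO_MI and 35.2 in Het_MI, against 9.08 in KO_sham and 25.4 in Het_sham. Those of mural cells were at 25.8 and 7.39 CPM, against 20.0 and 17.4. The part of this RNA in the macrophage ratios was not tested. Cytotoxic effector genes in macrophages had a median of 1.02, with 7 of 10 past 1.5-fold higher. Gzma was counted in 0.841% of macrophages in KO_MI and 0.364% in Het_MI after thinning, against 27.9% and 12.1% of T cells. Summed markers of cDC2, which express MHC class II strongly, were at 97.9 and 99.8 CPM, and those of cDC1 at 95.7 and 101.

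**Figure D4:**
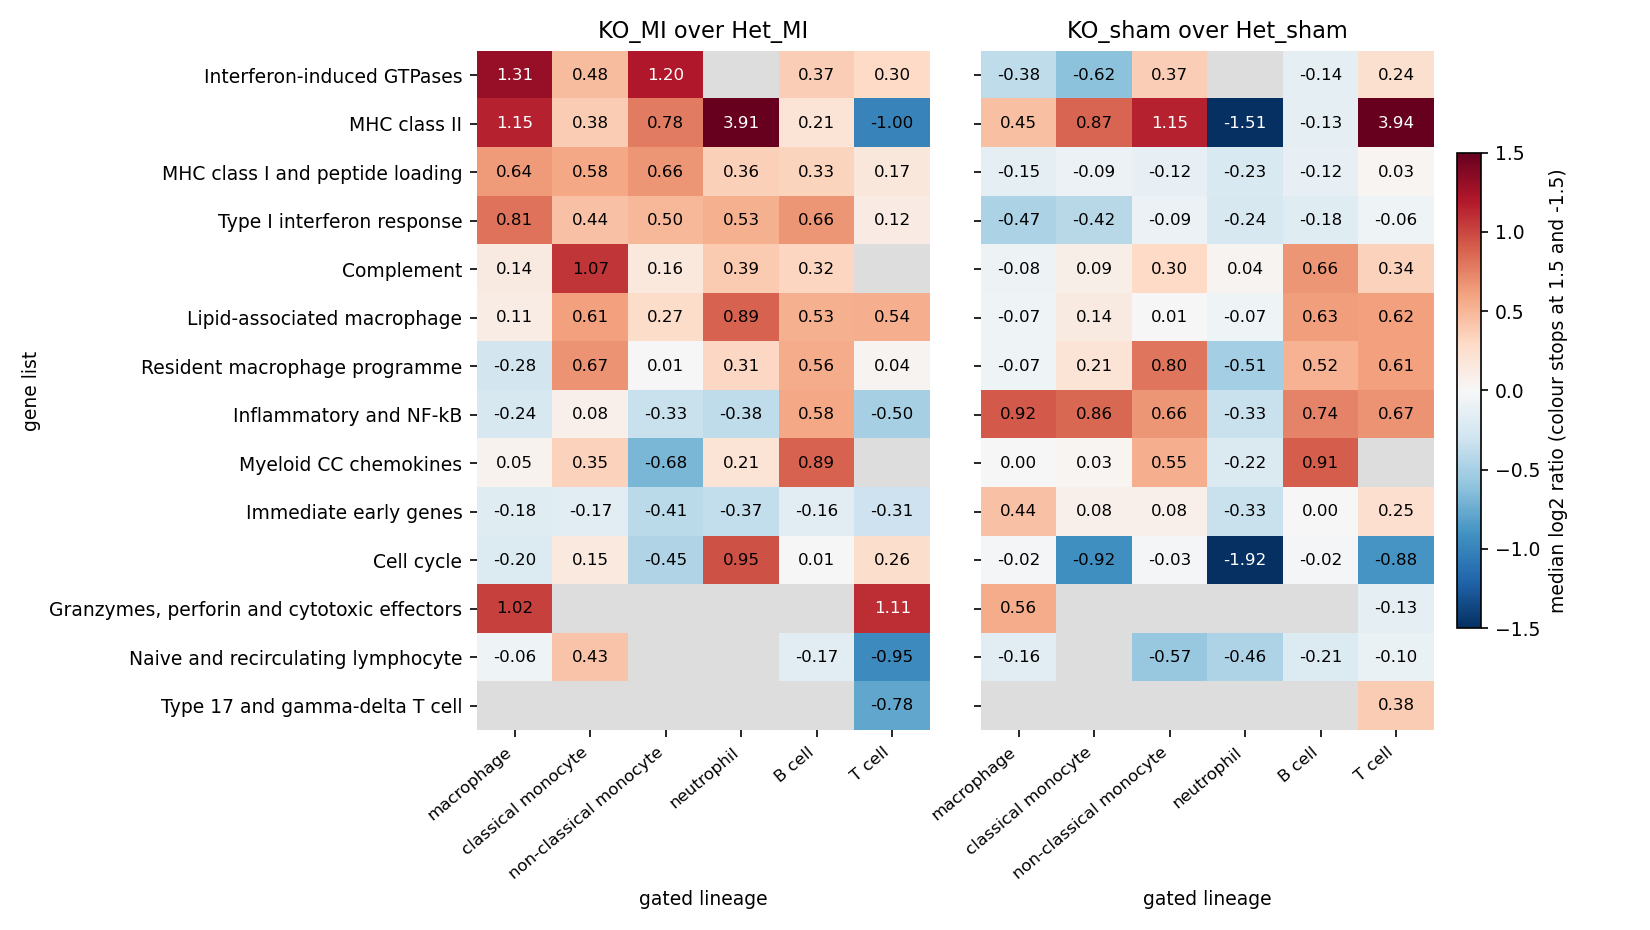
Median log2 ratio of gene lists (rows) by lineage (columns), for KO_MI over Het_MI and for KO_sham over Het_sham. Grey marks lists with under 5 measured members, colours stop at 1.5 in either direction, and the macrophage column of the GTPase list reads 1.31 after infarction and −0.38 after sham.

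Classical monocytes were 358 cells of KO_MI and 164 of Het_MI. There 7.15% of 7443 genes lay past 1.5-fold higher and 7.16% lower, with a median of −0.04. Gbp2 had 139 CPM in KO_MI and 34.0 in Het_MI, against 25.4 in KO_sham and 14.7 in Het_sham (2.03 [1.60 to 2.50], Xist-limited 3.59). Ly6i, a surface protein gene of the Ly6 family, had 81.0 and 12.7 CPM, against 17.5 and 15.3 (2.67 [1.98 to 3.45], Xist-limited 4.33). In both, KO_MI alone was high. Het_MI had 48 Gbp2 UMIs and 18 Ly6i UMIs in all its classical monocytes, and the Xist-limited ratios rest on at most these. Of 18 MHC class I genes 9 lay past 1.5-fold higher (median 0.58), with H2-K1 at 1037 CPM in KO_MI and 536 in Het_MI (0.95) and H2-Q7 at 42.1 and 9.20 (2.20 [1.37 to 3.15]). Of 22 type I interferon genes 8 lay past it (0.44), and of 8 GTPases 3 (0.48), with none lower in these 3 lists. The Xist-limited median of the type I genes had the opposite sign, at −0.34 [−1.10 to 0.59]. The median of the GTPases was 1.31 [−0.12 to 2.50] with a minimum of 10 UMIs or of 1, and 0.59 [−0.91 to 1.96] Xist-limited. Among the lower genes, Id3, a repressor of differentiation factors, had 77.1 CPM in KO_MI and 195 in Het_MI, against 169 in KO_sham and 80.5 in Het_sham (−1.34 [−1.60 to −1.07]). Ptgs2 had 138 and 245 CPM (−0.83) and Trrap, a subunit of acetyltransferase complexes, 24.1 and 50.9 (−1.08).

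The classical monocytes of KO_MI also carried more RNA of macrophages and neutrophils. Summed neutrophil markers were at 3359 CPM in KO_MI and 800 in Het_MI, against 1512 in KO_sham and 1664 in Het_sham. Summed macrophage markers were at 1318 and 553 CPM. Beside these, 6 of 11 complement genes lay past 1.5-fold higher (median 1.07), as did 9 of 16 lipid-associated genes (0.61), 6 of 10 resident macrophage genes (0.67) and 6 of 10 neutrophil granule genes (1.39). Xist-limited, the medians were lower for complement (0.39 [0.02 to 1.45]) and neutrophil granule genes (0.64 [−0.32 to 1.64]). They were higher for lipid-associated (0.84 [0.44 to 1.53]) and resident macrophage genes (1.12 [0.26 to 2.03]). S100a9, a neutrophil gate gene, had 751 CPM in KO_MI and 47.4 in Het_MI. The part of these markers in those 4 lists was not tested.

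Non-classical monocytes were 412 cells of KO_MI and 209 of Het_MI, and 6.08% of their 7021 genes lay past 1.5-fold higher and 9.33% lower, with a median of −0.10. Several interferon targets were higher here too. Gbp2 had 67.6 CPM in KO_MI and 15.8 in Het_MI, against 24.4 in KO_sham and 19.6 in Het_sham (2.10 [1.40 to 2.87]). Ifi27l2a had 1163 and 528 CPM (1.14 [1.01 to 1.27], Xist-limited 0.60), and Ly6i 174 and 64.1 (1.44). Of 18 MHC class I genes 11 lay past 1.5-fold higher (median 0.66), among them H2-K1 (2135 and 1296 CPM, 0.72) and H2-T22 (83.1 and 30.8 CPM, 1.43). Of 7 GTPases 5 were past it higher and 1 lower (median 1.20), and of 6 MHC class II genes 4 higher (0.78). The Xist-limited medians were 0.35 [−0.93 to 3.40] for the GTPases and 2.21 [1.05 to 3.98] for MHC class II, whose median was 0.19 with mixed droplets kept. For the type I interferon response genes the Xist-limited median was −0.17 [−0.81 to 0.69], so this list was not shown to be higher. Summed macrophage markers were at 1335 CPM in KO_MI and 838 in Het_MI.

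Several inflammatory genes were lower in these patrolling cells, but not as a list once limited to Xist cells. Over all cells their median was −0.33, with none of 16 past 1.5-fold higher and 6 lower, against 0.66 in the sham hearts. The Xist-limited median was 0.03 [−0.57 to 0.31]. Nfkbiz, a regulator of NF-kB targets, had 372 CPM in KO_MI and 662 in Het_MI, against 655 in KO_sham and 359 in Het_sham (−0.83 [−0.97 to −0.69]). Il1b had 2634 and 3080 CPM (−0.23) and Cxcl2 1256 and 1775 (−0.50). Cd83, a gene of activated presenting cells, had 269 and 485 CPM (−0.85), and Id3 110 and 256 (−1.23). Of 8 myeloid CC chemokines 5 lay past 1.5-fold lower and 1 higher, with a median of −0.68 that was 0.02 after thinning. Among them Ccl4 had 333 and 585 CPM (−0.81) and Ccl3 212 and 353 (−0.74). The Xist-limited ratios were −0.36 for Nfkbiz, −0.44 for Cd83 and −0.75 for Id3, of the same sign and smaller.

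Neutrophils, 305 cells of KO_MI and 227 of Het_MI, were the shallowest cells, with medians of 1994 and 2421 UMIs. Of 4207 genes 13.6% lay past 1.5-fold higher and 11.5% lower, so single ratios weigh less here. Ifi27l2a had 478 CPM in KO_MI and 147 in Het_MI, against 182 in KO_sham and 211 in Het_sham (1.70 [1.39 to 2.02]). Type I interferon genes had a median of 0.53, with 5 of 10 past 1.5-fold higher and none lower. Nme2, a nucleotide kinase, had 176 and 39.5 CPM (2.15), and Dbi, which binds acyl-CoA, 120 and 28.6 (2.07, and 1.76 without the cell with 19.3% of its UMIs). Il1rn, the antagonist of the interleukin-1 receptor, had 265 CPM in KO_MI and 650 in Het_MI, against 195 in KO_sham and 221 in Het_sham (−1.29 [−1.52 to −1.07]). Ptgs2 had 155 and 327 CPM (−1.08) and Nup98, a nuclear pore gene, 64.2 and 158 (−1.30). Of 13 neutrophil granule genes none lay past 1.5-fold. The MHC class II median of 3.91 rests on few cells: Cd74 had 512 UMIs in KO_MI and 42 in Het_MI, with 45.1% of the KO_MI UMIs in 1 cell. Summed macrophage markers were at 346 CPM in KO_MI and 204 in Het_MI.

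B cells were 721 cells of KO_MI and 762 of Het_MI. Of 8987 genes 3.81% lay past 1.5-fold higher and 7.64% lower, with a median of −0.10. Some interferon-induced genes were higher in them as well. H2-Q7 had 100 CPM in KO_MI and 40.6 in Het_MI, against 32.5 in KO_sham and 35.7 in Het_sham (1.30 [1.04 to 1.57]), and H2-Q6 69.7 and 31.7 (1.13), with the same limit on near-identical copies. Their Xist-limited ratios were 1.33 and 1.51. Ifi27l2a had 480 and 305 CPM (0.66). Of 9 type I interferon genes 6 lay past 1.5-fold higher and none lower (median 0.66), and of 18 MHC class I genes 4 (0.33), with H2-K1 at 1079 and 714 CPM (0.59). Of 10 MHC class II genes 1 lay past it (0.21), and Cd74 had 7246 CPM in KO_MI and 6721 in Het_MI. The median of the interferon-induced GTPases was 0.37 [−0.19 to 0.94], an interval that included no difference. It was 0.21 with cells weighted equally and 0.51 [−0.43 to 1.51] Xist-limited. Nr4a1, an immediate early gene induced by antigen receptor signals, had 127 and 215 CPM, against 172 in KO_sham and 177 in Het_sham (−0.76 [−0.93 to −0.60], Xist-limited −0.43). Gigyf1, a regulator of translation, had 31.9 and 59.5 CPM (−0.90), and Trim8, a ubiquitin ligase, 31.9 and 60.3, where the sign was the opposite with a stricter cell filter (0.12). B cell maturation genes had a median of −0.12, with 1 of 14 past 1.5-fold. Ighm, the heavy chain of IgM, had 4475 CPM in KO_MI and 5086 in Het_MI.

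T cells, which carry PD-1 after activation, were 195 cells of KO_MI and 160 of Het_MI. Of 6031 genes 10.4% lay past 1.5-fold higher and 18.4% lower, with a median of −0.08. Of 10 measured cytotoxic effector genes 6 were past it higher and none lower, with a median of 1.11, against −0.13 in the sham hearts. Gzmb, a granzyme of killer cells, had 300 CPM in KO_MI and 51.1 in Het_MI, against 43.7 in KO_sham and 78.6 in Het_sham (2.55 [2.13 to 3.0]). Gzma had 1667 and 458 CPM, against 550 and 536 (1.86 [1.72 to 2.01]). In both, KO_MI stood above the other 3 libraries. A single cell held 16.3% of the Gzmb UMIs and 14.7% of the Gzma UMIs of KO_MI, and without it the ratios were 2.30 and 1.63. Xist-limited, the Gzma ratio was 2.46 and the Gzmb ratio at least 3.89. Nkg7, a granule membrane protein gene, had 838 and 377 CPM (1.15), and Ccl5 3285 and 1567 (1.07), with a ratio of 1.0 in the sham hearts. Gzmc had 117 UMIs in KO_MI and none in Het_MI, with 54.7% of them in 1 cell. Serpinb6b, a granzyme inhibitor of the serpin family, was the lowest member at 0.49. After thinning, 27.9% [21.5 to 35.1] of T cells in KO_MI and 12.1% [7.45 to 18.3] in Het_MI held a Gzma UMI, against 0.485% and 0.137% of B cells.

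Genes of naive and recirculating lymphocytes stood lower in the T cells of KO_MI, with none of 10 past 1.5-fold higher, 8 lower and a median of −0.95. Satb1, a chromatin organiser of T cells, had 213 CPM in KO_MI and 477 in Het_MI, against 495 in KO_sham and 503 in Het_sham (−1.16). Tcf7, which keeps T cells in an undifferentiated state, had 158 and 321 CPM (−1.02), Lef1 86.4 and 194 (−1.17), the lymph node homing receptor gene Ccr7 63.2 and 149 (−1.23) and the interleukin-7 receptor gene Il7r 126 and 233 (−0.88). For Satb1, Tcf7, Lef1 and Ccr7, KO_MI lay below all 3 other libraries. Of 7 type 17 and gamma-delta genes 5 lay past 1.5-fold lower (median −0.78), with Il17a at 13 UMIs in KO_MI and 51 in Het_MI and Blk at 10 and 43. The single genes with the firmest lower ratios were Mllt6 (23.3 and 83.0 CPM, −1.83), Igf1r, the receptor of insulin-like growth factor (24.1 and 80.1, −1.73, Xist-limited −0.45), and Zbtb20, a transcriptional repressor (24.1 and 80.1, −1.73).

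Inflammatory genes in T cells had 1 of 13 past 1.5-fold higher and 6 lower (median −0.50), against a sham median of 0.67. Their Xist-limited median had the opposite sign, at 0.16 [−0.77 to 1.03]. Glycolysis genes had 5 of 13 past 1.5-fold higher and 1 lower (median 0.50, Xist-limited 1.08), with Gapdh at 1911 CPM in KO_MI and 1205 in Het_MI, and respiratory chain genes 4 of 16 higher (0.48). Among checkpoint genes Cd160 had 106 and 27.0 CPM (1.97), Ctla4 95.6 and 116 (−0.28) and Tox 45.7 and 52.1. Regulatory T cell genes had none of 8 past 1.5-fold, with a median of 0.38, but their Xist-limited median was 1.79 [0.37 to 3.74]. Of 7 GTPases in T cells 2 lay past it higher (0.30), and of 8 type I interferon genes 1 in each direction (0.12). Cd8a had 110 CPM in KO_MI and 51.1 in Het_MI, and Cd8b1 169 and 103. Summed NK markers in the T cell gate were at 120 CPM in KO_MI and 87.8 in Het_MI, and summed B cell markers at 51.5 and 18.3. Their part in these ratios was not tested.

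**Figure D5:**
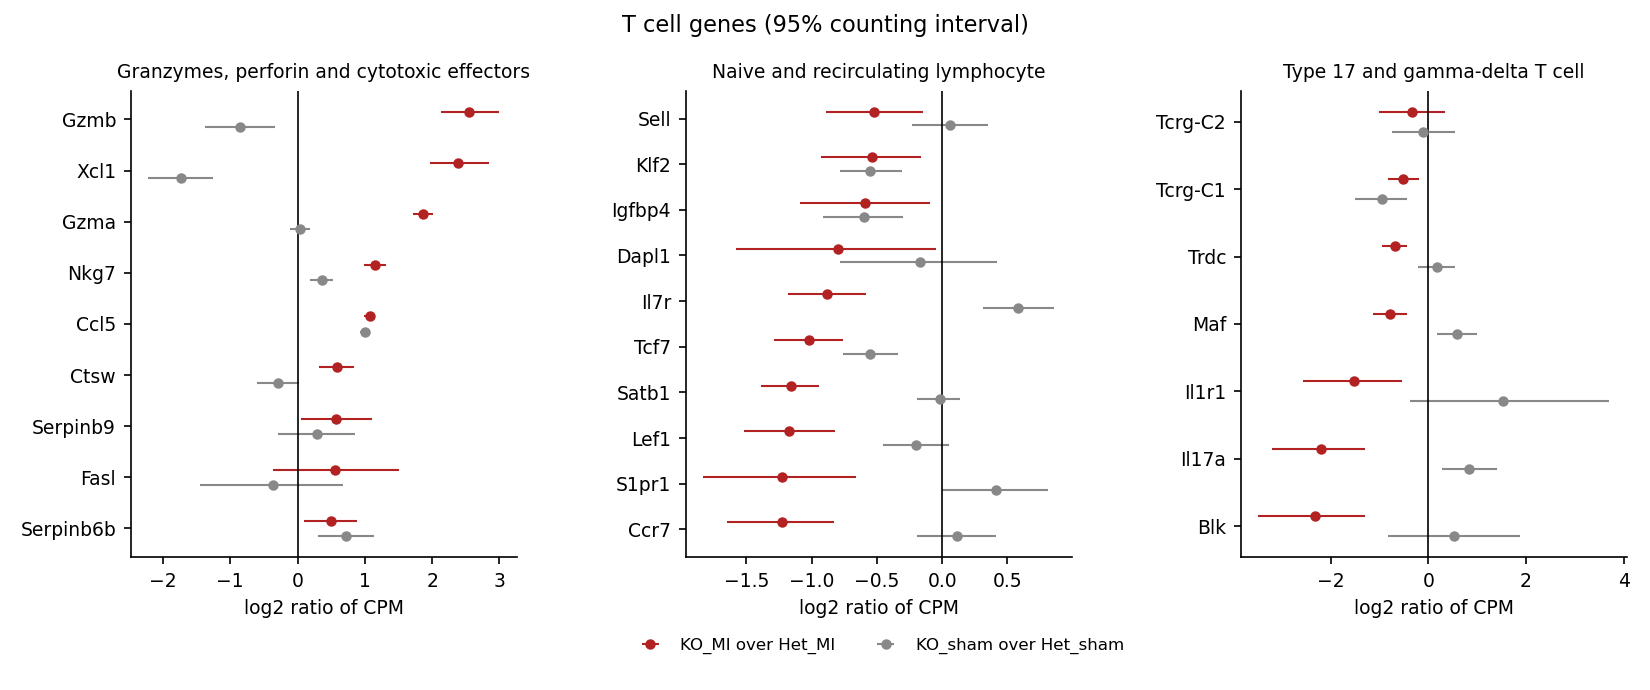
Log2 ratios of CPM in T cells for measured members of 3 lists, with points for KO_MI over Het_MI and for KO_sham over Het_sham and lines for 95% counting intervals; Gzmc, with no UMI in Het_MI, is not drawn. After infarction the cytotoxic effector genes lie to the right of 0 (median 1.11 with Gzmc) and the naive lymphocyte genes to the left (median −0.95).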

How the data were processed

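Sorted CD45-positive heart cells were made into 10x single cell 3′ v3 libraries, per the labels' protocols. Cell Ranger 6.1.1 and Seurat 4 are named in the submitters' processing notes and Cell Ranger 4.0.0 in the file headers. The labels name the builds mm10 and GRCm38. How cells were called is not given in the sources used here. Each deposited matrix gives whole-number UMI counts for 32285 genes by barcode, which the authors had not normalized, and no cell type labels were used. Barcodes with at least 500 UMIs, 200 genes and at most 10% mitochondrial UMIs were kept.

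A lineage gate needed 2 detected marker genes (3 for T cells, endothelial cells and conventional and migratory dendritic cells) and 3 of their UMIs. The mean log level of its genes had to reach 40% of the median in core cells. Core cells had at least 4 markers detected, or 3 for shorter marker lists. The lineage with the highest relative level led. A droplet that reached 40% in an incompatible lineage was called mixed and set aside. From the marker lists 9 genes were dropped because another lineage carries them. The gate thresholds were chosen after the data were seen. Genes used in any gate are not results for it. Scrublet's automatic threshold, run through scanpy 1.11.5, called 6, 1, 0 and 139 cells in KO_MI, Het_MI, KO_sham and Het_sham, and so did not work in the infarcted libraries. Leaving out the 476, 250, 399 and 333 cells with the highest scores, at 0.8% per 1000 barcodes, was an alternative. Pairs of libraries shared 7 to 16 barcodes.

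For each library, the UMIs of all cells in a lineage were added up and divided by their total. With 1 library per group no test was possible. Shares have Clopper-Pearson intervals, levels exact Poisson intervals and ratios exact conditional binomial intervals, all at 95% (Python 3.11.15, numpy 2.4.6, scipy 1.17.1, pandas 2.3.3, matplotlib 3.10.9). The ratio intervals reached their nominal coverage on simulated Poisson counts. Those counts follow the model the intervals assume, so this checks the calculation only. It does not show coverage under spread between cells or animals. For a bound, a library with no UMI was given 3. Gene lists were described by their median and by members past 1.5-fold, over genes with at least 30 UMIs summed over both libraries compared. For the sham medians these were both sham libraries, so an infarcted and a sham median of a list can rest on different members. TMM factors of edgeR 4.0.16 (R 4.3.3) were used only to rescale ratios. They placed the centre of the ratios at −0.117 over all cells, −0.104 in macrophages and −0.127 in non-classical monocytes. Median-of-ratios factors placed it at −0.140 in T cells.

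Named genes were those whose interval bound nearest to 0 lay farthest from 0, 5 in each direction in macrophages and over all cells and 3 in other lineages with at least 100 cells in both libraries. They needed 100 UMIs, 50 CPM in the higher library, 10% of their highest lineage's level and under 25% of UMIs in 1 cell. From each list the members with most UMIs, highest ratio and lowest ratio were named. Further members, and genes of small lineages, were chosen after their values were seen. Results for some genes are not reported here. The members and all lists were chosen with earlier results of these data known.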

Additional observations from a re-analysis of the deposited data

Results flagged for a closer look

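These ratios of KO over Het pointed in opposite directions after infarction and after sham surgery. None of these differences between the 2 operations was tested, since each group is 1 library.

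The log2 share ratio of classical monocytes was 0.71 after infarction and −0.39 after sham, and that of non-classical monocytes 0.57 and −0.28. In macrophages, the median of the interferon-induced GTPases was 1.31 after infarction and −0.38 after sham, that of the MHC class I and peptide loading genes 0.64 and −0.15, and that of the type I interferon response genes 0.81 and −0.47. The inflammatory genes had the reverse order in macrophages, with −0.24 after infarction and 0.92 after sham.

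Among single genes, Marco stood at 2.49 after infarction and −1.24 after sham over all cells, and at 2.42 and −1.82 in macrophages. A single cell held 29.2% of the Marco UMIs of Het_sham over all cells and 50.9% in macrophages. Without it the sham ratios were −0.74 and −0.80. Ptgs2 over all cells stood at −0.75 after infarction and 1.01 after sham. Gdf15 in macrophages stood at −0.63 and 0.89, Id3 in classical monocytes at −1.34 and 1.07, and Nfkbiz in non-classical monocytes at −0.83 and 0.87. Dbi in neutrophils stood at 2.07 and −0.61. In T cells Gzmb stood at 2.55 after infarction and −0.85 after sham, and Ifng at 2.20 and −0.83. Without the cell with the most UMIs in the higher sham library, the sham ratios were smaller. They were −0.31 for Dbi, −0.58 for Gzmb and −0.49 for Ifng. The share of cells with a Y-linked UMI was 0.0141% in KO_MI and 60.3% in Het_MI, and 47.4% in KO_sham and 40.7% in Het_sham, so the pairs of libraries differ in sex makeup as well, and the part of that in these reversals was not tested.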

How the results depend on the processing

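No paired analysis was possible because each group is 1 library. No library could be left out for the same reason. The alternatives were mixed droplets kept, high doublet scores left out, 1 more gate gene, thinning to 2000 UMIs, a stricter cell filter (1000 UMIs and 5% mitochondrial), Xist-limited cells, 2 other scalings, cells weighted equally, the top cell left out, and other minimum counts. Of the main results, 29 of 36 share ratios and 103 of 128 list medians moved by no more than their counting interval. The cause of the following shifts was not tested.

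The macrophage share ratio (log2, −0.02) was 0.08 when thinned and −0.11 with the stricter filter. The classical monocyte ratio (0.71) was 0.40 Xist-limited and the B cell ratio (−0.49) was −0.09 with the stricter filter. The neutrophil ratio (0.01) was −0.40 when thinned, −0.26 with the stricter filter and 1.19 Xist-limited. In macrophages the GTPase median (1.31) was 0.93 when thinned. The MHC class II median (1.15) was 0.74 when thinned and 1.77 Xist-limited. The MHC class I median (0.64) was 0.74 with TMM, 0.73 with median of ratios and 0.56 with cells weighted equally. The type I interferon median (0.81) was 0.55 when thinned and 0.45 Xist-limited. The resident median (−0.28) was −0.24 with the stricter filter, −0.35 Xist-limited, −0.17 with TMM, −0.19 with median of ratios and −0.31 with a minimum of 10 UMIs or of 1. The inflammatory median (−0.24) was −0.18 Xist-limited, −0.13 with TMM and −0.15 with median of ratios. The cell cycle median (−0.20) was −0.08 with mixed droplets, −0.04 when thinned, −0.10 with TMM and −0.11 with median of ratios. In T cells the cytotoxic median (1.11) was 0.96 when thinned, 0.97 with the stricter filter and 1.82 Xist-limited, and the naive median (−0.95) was −1.57 Xist-limited.

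Some values had the opposite sign. In neutrophils, the lipid-associated median (0.89) was −0.17 when thinned, and the scavenger receptor median (1.11) was −0.07 with mixed droplets and −0.48 with cells weighted equally. In non-classical monocytes, the CC chemokine median (−0.68) was 0.02 and Gbp9 (−0.60) 0.22 when thinned. In classical monocytes, Cxcl9 (2.59) was −2.31 with 1 more gate gene, and Irf1 (0.61) was −0.55 when thinned. Eln over all cells (−0.76) was 0.28 Xist-limited, and Trim8 in B cells (−0.92) was 0.12 with the stricter filter. Neutrophils had few UMIs per cell, with medians of 1994 in KO_MI and 2421 in Het_MI, and lineages under 100 cells are limited by their number of cells.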

Other observations

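The small lineages held too few cells for lists, and their values are given as counted. NK cells, 91 in KO_MI and 56 in Het_MI, had 316 CPM of Gzmb in KO_MI and 90.2 in Het_MI (1.81), 563 and 164 of the chemokine gene Xcl1 (1.78), and 11482 and 8438 of Gzma (0.44). Their Ccl5 had 8748 and 10738 CPM, so the effector genes did not all lie on the same side. ILC2 had 121 CPM of Gbp2 in KO_MI and 25.7 in Het_MI (2.23), and basophils 109 and 1071 CPM of Gzmb. In mast cells the gate gene Cma1, a chymase, had 60573 CPM in KO_MI and 61627 in Het_MI, from 14 and 31 cells.

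Dendritic cells differed by type. The cDC2, 46 cells of KO_MI and 32 of Het_MI, had 148 CPM of Gbp2 in KO_MI and 21.2 in Het_MI (2.80), and 240 and 14.2 CPM of Ccl5. In cDC1 Gbp2 lay close together, at 55.9 CPM in KO_MI and 47.9 in Het_MI. Migratory dendritic cells, 39 and 16 cells, had 687 CPM of the chemokine gene Ccl17 in KO_MI and 535 in Het_MI and 6037 and 17396 CPM of Ccl5. Over all cells, genes of receptor recombination had a median of 0.93 in the infarcted hearts and −2.77 in the sham hearts, and antibody secretion genes had a median of −0.54 with 2 of 7 past 1.5-fold lower.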
